A study of Homo sapiens with 6 samples.

Results

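A set of 10 genes that modify and cross-link collagen was followed: P4HA1, P4HA2, P4HA3 and P4HB of prolyl 4-hydroxylase, PLOD1, PLOD2 and PLOD3 of the lysyl hydroxylases, and LOX, LOXL1 and LOXL2 of the lysyl oxidases. They were taken by gene symbol as a set chosen with earlier results of these data known, and make up 10 of the 44591 genes listed. The RNA came from A2780, a human ovarian cancer cell line labelled as wild type (WT), grown in DMEM with fetal bovine serum. There were 3 untreated libraries, and 3 libraries of cells that received human recombinant CRMP2 (r-CRMP2) at 40 ng/ml for 48 h. CRMP2, the product of DPYSL2, is a microtubule-binding protein, and the study examined it as a factor that fibroblasts of the tumour release. The labels name no vehicle for the untreated cells and do not say whether replicates came from separate cultures, so the p-values measure the spread between these libraries only, which may be technical. A single cell line, dose and time were sequenced.

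Collagen chains are modified inside the cell before they fold. Prolyl 4-hydroxylase, a tetramer of alpha subunits (P4HA) and the protein disulfide isomerase P4HB, makes the 4-hydroxyproline that stabilises the triple helix, and the PLOD enzymes hydroxylate lysines, which can then carry sugars or take part in cross-links. Both are oxygenases that use 2-oxoglutarate, iron and ascorbate. After secretion, the copper-dependent lysyl oxidases oxidise lysine and hydroxylysine and so start the covalent cross-links of collagen and elastin. Several of these genes, P4HA1, P4HA2, PLOD2 and LOX among them, are known targets of the hypoxia-inducible factor HIF-1.

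Counts per library ran from 21888530 to 25711353. All 10 genes passed edgeR's filter on low counts, as did 16222 genes in all. Replicate 3 of r-CRMP2 had the most counts but listed 22438 genes with a count, fewer than the 25152 to 26302 of the other libraries. Without it the calls on the 10 genes stood at 9 higher and 1 lower, as with it. Of the markers of epithelial ovarian cells, KRT18, a keratin of simple epithelia, averaged 1251 CPM untreated and 1435 CPM with r-CRMP2. CPM are counts scaled to the effective library size. The counts of KRT18 are uncertain, because KRT8 overlaps it by 996 bases on the opposite strand and took 25734 to 34845 counts. The lineage marker WT1, in contrast, had 0 to 3 counts and the epithelial cadherin CDH1 0 to 5 counts in a library. DPYSL2 itself had 86.1, 81.3 and 80.8 CPM in the untreated and 125, 128 and 138 CPM in the r-CRMP2 libraries, a log2 fold change of 0.66 ± 0.05 (SE, adjusted p = 5.48e-08, edgeR's quasi-likelihood test, n = 3 and 3). HIF1A, which encodes the regulated subunit of HIF-1, went from 149 ± 8.34 to 210 ± 8.67 CPM (mean ± SD, 3 libraries each), a log2 fold change of 0.49 (adjusted p = 2.13e-06, edgeR). Scaled by library size alone, HIF1A changed by 0.18 (adjusted p = 0.0173, edgeR) and DPYSL2 by 0.35 (adjusted p = 0.000108, edgeR) on the log2 scale. On the TPM scale, the groups of HIF1A overlapped, at 85.7, 78.9 and 83.5 untreated and 99.2, 83.9 and 95.6 with r-CRMP2. A gene annotated on the opposite strand of HIF1A, HIF1A-AS2, took 423 to 642 counts.

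Of the 10 genes, 9 were upregulated and 1, LOXL1, was downregulated at an adjusted p below 0.05 (edgeR's quasi-likelihood test, Benjamini-Hochberg over 16222 genes). Among all genes tested, 28.2% were higher and 30.1% lower by the same rule. The 4 genes LOX, LOXL2, P4HA1 and P4HA2 also rose by more than 1 on the log2 scale, which 5.12% of all genes did, while 8.86% of all genes fell by as much. Over the 10 genes the median log2 fold change was 0.85, and that of all tested genes was -0.03. None of the 10 genes had overlapping groups on the TMM-scaled CPM scale or on the deposited TPM scale (counts divided by gene length and scaled to a fixed total, so that genes can be compared). The share of all tested genes without overlap was not counted, so this does not set the 10 genes apart. How libraries were scaled moved every difference by about the same amount: with library size alone the median of all genes shifted to -0.34, and 20.4% of the calls over all genes were rises instead of 48.4%. On that scale 8 of the 10 genes were called higher and LOXL1 lower, PLOD3 (log2 fold change 0.11, adjusted p = 0.0706, edgeR) was not called, and 2 genes in place of 4, LOX and LOXL2, kept a rise of more than 1.

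**Figure D1:**
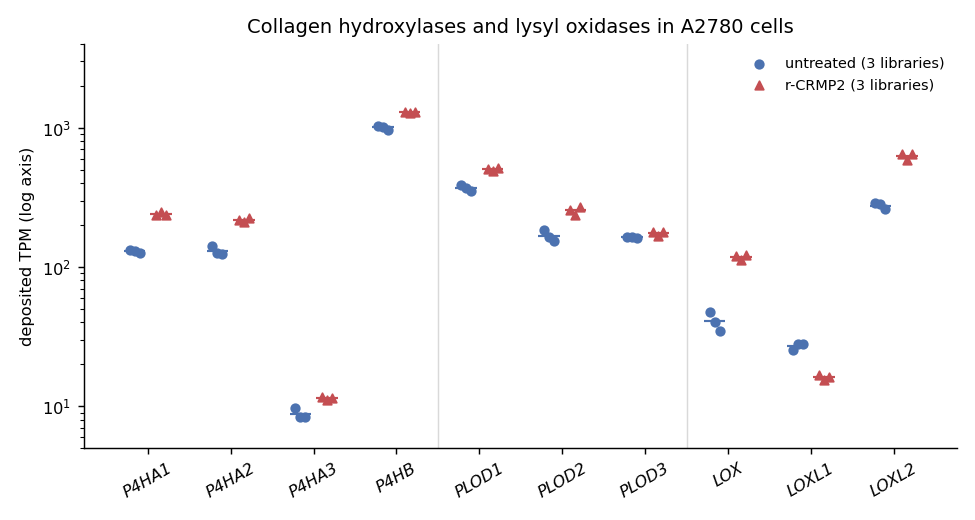
Deposited TPM (log axis) of each gene in each of the 3 untreated (circles) and 3 r-CRMP2 (triangles) libraries, with short lines at the group means. Of the 10 genes, 9 lie higher in the r-CRMP2 libraries and LOXL1 lies lower, with no overlap between groups in any of the 10. The share of all genes without overlap was not counted.

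The start regions of 4 genes are given here because 3 of them belong to known HIF-1 targets that rose (P4HA1, PLOD2 and LOX) and 1 to the gene that fell (LOXL1). They were searched on both strands for the core of the HIF response element, ACGTG or GCGTG. Each sequence holds the 250 bases before the transcript start of the RefSeq annotation (build GRCh38.p14), read 5′ to 3′ on the gene's strand, with the motif or its reverse complement in capitals. The windows are chr10:73096867-73097116 for P4HA1, chr3:146161185-146161434 for PLOD2 and chr5:122078260-122078509 for LOX, all on the minus strand, and chr15:73926212-73926461 for LOXL1 on the plus strand.
P4HA1: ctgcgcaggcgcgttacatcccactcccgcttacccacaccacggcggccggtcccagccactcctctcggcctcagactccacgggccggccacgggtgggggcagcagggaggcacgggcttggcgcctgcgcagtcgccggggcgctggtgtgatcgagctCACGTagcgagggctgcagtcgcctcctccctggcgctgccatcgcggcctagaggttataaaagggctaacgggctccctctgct
PLOD2: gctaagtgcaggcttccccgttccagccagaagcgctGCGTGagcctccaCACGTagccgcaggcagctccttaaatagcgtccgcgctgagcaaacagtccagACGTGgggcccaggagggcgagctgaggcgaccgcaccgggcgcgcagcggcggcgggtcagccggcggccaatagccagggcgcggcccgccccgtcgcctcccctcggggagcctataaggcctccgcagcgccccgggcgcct
LOX: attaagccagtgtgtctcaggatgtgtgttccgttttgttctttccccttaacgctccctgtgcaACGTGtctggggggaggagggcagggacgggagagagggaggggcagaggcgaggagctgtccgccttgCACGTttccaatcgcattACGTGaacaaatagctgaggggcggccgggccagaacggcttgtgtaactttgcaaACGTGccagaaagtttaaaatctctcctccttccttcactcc
LOXL1: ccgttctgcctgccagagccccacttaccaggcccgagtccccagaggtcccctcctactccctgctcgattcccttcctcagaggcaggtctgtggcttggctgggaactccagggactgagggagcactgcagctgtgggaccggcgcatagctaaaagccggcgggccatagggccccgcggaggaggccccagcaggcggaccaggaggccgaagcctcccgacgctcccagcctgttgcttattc
P4HA1 held 1 ACGTG, which began 86 bases before the start. PLOD2 held 2 copies of ACGTG and 1 of GCGTG, and LOX held 4 copies of ACGTG, at 185, 116, 98 and 42 bases before this start, the first of 3 starts with a window. The windows of the other starts of LOX overlap each other and held fewer copies, 1 ACGTG and 1 GCGTG each. LOXL1 held neither motif. A window was matched by symbol for 8 of the 10 genes, not for P4HA3 and LOXL2. Of the others, which all rose, P4HB had 1 and PLOD1 had 2 copies of GCGTG. P4HA2, also a known HIF-1 target, and PLOD3 had neither motif. The letters are common: 18.5% of 35114 windows of this length held ACGTG, 32.2% held GCGTG and 43.2% held either. A match describes the letters of the window only. The 4 printed windows were picked with the direction of their genes known, so the contrast between them is not a test.

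Among the prolyl 4-hydroxylase genes, both major alpha subunits rose about 2-fold and the minor one and the beta subunit rose by less. The positions given with each gene are the spans in the deposited files, for which the submitters name the build hg19, and the counts are sums over the whole gene, so exons and isoforms cannot be told apart. P4HA1 (chr10:74766975-74856732, minus strand), the catalytic alpha(I) subunit, had 134, 131 and 126 TPM in the untreated and 237, 248 and 235 TPM in the r-CRMP2 libraries. Every treated library was well above every untreated one. On the TMM-scaled CPM used for testing, its mean went from 161 ± 6.22 to 373 ± 27.7 (SD, n = 3 each), a 2.31-fold rise (log2 fold change 1.21 ± 0.07 SE, adjusted p = 2.47e-11, edgeR). P4HA2 (chr5:131528303-131563556, minus strand), the alpha(II) subunit, had 142, 127 and 125 TPM untreated and 216, 209.5 and 224 TPM with r-CRMP2. Its first untreated library was the highest of that group and still well below the treated ones, and its CPM rose 2.07-fold (log2 fold change 1.05 ± 0.08 SE, adjusted p = 2.35e-10, edgeR).

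P4HA3 (chr11:73977694-74022721, minus strand), the alpha(III) subunit, was the least expressed of the 10 genes in both groups, at 9.71, 8.40 and 8.36 TPM untreated and 11.6, 11.1 and 11.5 TPM with r-CRMP2. These values rest on 192 to 309 counts a library. The groups did not overlap, although the first untreated library came close to the treated ones, and the CPM rose 1.62-fold (log2 fold change 0.69 ± 0.08 SE, adjusted p = 3.17e-05, edgeR). P4HB (chr17:79801034-79818544, minus strand), which holds the alpha subunits in soluble form and also works as a general disulfide isomerase, was the most abundant, at 1037, 1010.4 and 969 TPM untreated and 1297, 1271 and 1307 TPM with r-CRMP2. All treated libraries were higher, and the CPM rose 1.61-fold (log2 fold change 0.69 ± 0.05 SE, adjusted p = 2.57e-08, edgeR). A gene annotated antisense to P4HB (ENSG00000262831.1) overlaps it by 794 bases and took 1515 to 2301 counts, and P4HA2-AS1 overlaps P4HA2 by 196 bases and took 86 to 176 counts. Reads of such pairs cannot be told apart unless strand was used, which the sources used here do not state.

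The log2 fold changes of P4HA1 and P4HA2 were larger than that of P4HB, and those of P4HA3 and P4HB were both 0.69. P4HB stood at 3.63, 3.79 and 3.74 times the summed TPM of the 3 alpha subunits in the untreated libraries and at 2.79, 2.71 and 2.77 times with r-CRMP2. The P4HA1 to P4HB ratio was 0.129 or 0.130 in each untreated library and 0.182, 0.195 and 0.180 with r-CRMP2, so the treated libraries lay apart from the untreated ones. The P4HA2 to P4HB ratio went from a mean of 0.130 to 0.168. P4HA1 and P4HA2 were near parity without treatment (ratio 0.940, 1.03 and 1.01) and P4HA1 was slightly ahead with it (1.09, 1.18 and 1.05), a shift whose nearest libraries were close to each other. The share of P4HA3 in the alpha subunits' TPM went from 3.26% ± 0.129 to 2.44% ± 0.0628 (SD, n = 3 each). Each of the 10 ratios between genes of a family gave p = 0.10 in a two-sided exact permutation test (20 assignments, 0.10 after Benjamini-Hochberg adjustment). That is the smallest p that 3 against 3 libraries allow, so no ratio could pass 0.05. Such ratios within a library do not depend on the scaling between libraries.

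All 3 lysyl hydroxylases were higher with r-CRMP2, PLOD2 by the most and PLOD3 by the least. PLOD2 (chr3:145787227-145879282, minus strand), which hydroxylates lysines of the telopeptides at the ends of the collagen chains, had 185, 163 and 153 TPM untreated and 258, 237 and 271 TPM with r-CRMP2. Both groups were more widely spread than those of the other PLOD genes relative to their means, but they stayed apart. Its CPM rose 1.91-fold (log2 fold change 0.93 ± 0.10 SE, adjusted p = 3.36e-09, edgeR), below the 2-fold threshold in the fit of all libraries and between 0.87 and 1.03 when each library was left out in turn, the highest without untreated replicate 1. PLOD1 (chr1:11994724-12035599, plus strand), which acts mainly on lysines of the helix, had 389, 369 and 353 TPM untreated and 509.6, 487 and 517 TPM with r-CRMP2. Again no treated library reached down to the untreated range, and the CPM rose 1.71-fold (log2 fold change 0.77 ± 0.05 SE, adjusted p = 6.08e-09, edgeR).

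PLOD3 (chr7:100849258-100861011, minus strand), which also carries glycosyltransferase activity, had 163 TPM in each untreated library and 179, 166 and 179 TPM with r-CRMP2. The second treated library was just above the untreated ones. On the TMM scale its CPM rose 1.34-fold (log2 fold change 0.42 ± 0.02 SE, adjusted p = 4.24e-06, edgeR), and with library size alone the rise was no longer called, as stated above. Relative to the median of all genes its log2 fold change was 0.45 on both scales. ZNHIT1, on the opposite strand, overlaps PLOD3 by 27 bases and had 1132 to 1362 counts.

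Within the family PLOD3 took a smaller share and PLOD2 a larger share with r-CRMP2. The PLOD2 to PLOD3 ratio of TPM was 1.13, 1.0 and 0.943 untreated and 1.44, 1.42 and 1.52 with r-CRMP2, and the PLOD1 to PLOD3 ratio went from a mean of 2.27 to 2.89. No treated value of either ratio fell within the untreated range (exact permutation p = 0.10 each, the smallest possible). PLOD3 made up 23.3% ± 1.08 of the summed PLOD TPM untreated and 18.7% ± 0.208 with r-CRMP2, while PLOD2 went from 23.8% ± 1.13 to 27.3% ± 0.733 and PLOD1 from 52.9% ± 0.172 to 54.0% ± 0.660 (SD, n = 3 each). PLOD2 against PLOD1 moved less, from a mean ratio of 0.451 to 0.505, and the nearest libraries of the groups were 0.476 and 0.485.

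**Figure D2:**
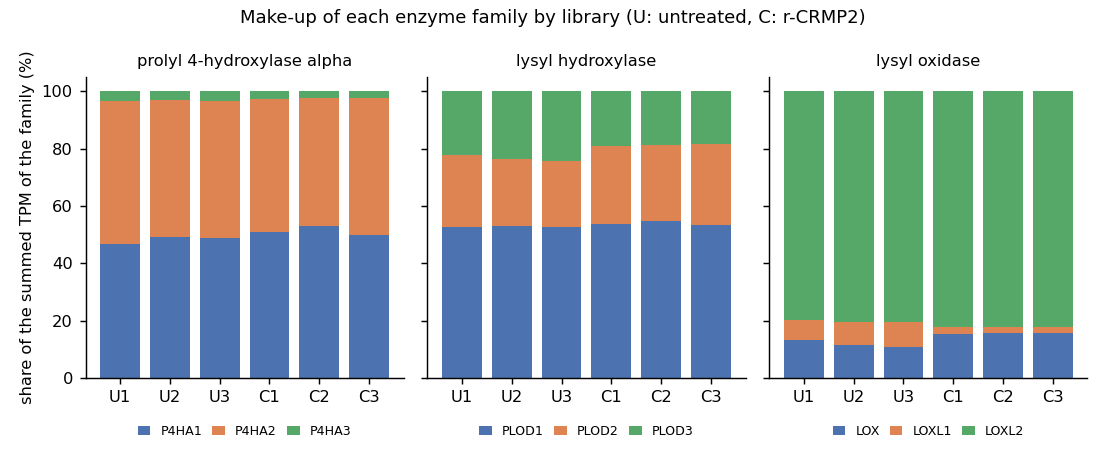
Share of each gene in the summed TPM of its family (%, from 0), for P4HA, PLOD and LOX genes, in each untreated (U1 to U3) and r-CRMP2 (C1 to C3) library. The LOXL1 band narrows from 7.91% to 2.13% of the lysyl oxidase genes and the PLOD3 band from 23.3% to 18.7% of the lysyl hydroxylase genes, as means of 3 libraries.

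The lysyl oxidases held the largest rises of the 10 genes and the one fall. LOX (chr5:121398890-121414196, minus strand), which cross-links collagen and elastin, had 47.8, 40.4 and 34.6 TPM untreated and 121, 112 and 122 TPM with r-CRMP2. Its untreated libraries varied more than those of any other of the 10 genes, relative to the mean, yet all were far below the treated ones. The CPM went from 93.2 ± 16.2 to 337 ± 7.70 (SD, n = 3 each), a 3.62-fold rise (log2 fold change 1.86 ± 0.14 SE, adjusted p = 4.57e-12, edgeR). LOXL2 (chr8:23154410-23261722, minus strand), which has scavenger receptor domains ahead of its catalytic domain and acts on basement membrane collagen among other substrates, had 286, 282 and 259 TPM untreated and 644, 588 and 644 TPM with r-CRMP2. No treated library came near the untreated ones, and the CPM rose 2.84-fold (log2 fold change 1.51 ± 0.05 SE, adjusted p = 9.61e-13, edgeR). LOX and LOXL2 were at the 98.6 and 97.9 percentile of the log2 fold changes of all genes tested.

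LOXL1 (chr15:74218799-74244482, plus strand), which binds elastic fibre proteins and is needed for elastin upkeep, went the other way. It had 25.1, 28.1 and 28.0 TPM untreated and 16.8, 15.5 and 16.3 TPM with r-CRMP2, from 658 to 738 and 392 to 448 counts. All treated libraries were lower, and the CPM went from 26.2 ± 1.27 to 19.6 ± 0.164 (SD, n = 3 each), which is 1.33 times lower (log2 fold change -0.41 ± 0.04 SE, adjusted p = 0.000231, edgeR). LOXL1-AS1, on the opposite strand over 1791 bases, had 221, 212 and 231 counts untreated and 238, 244 and 270 counts with r-CRMP2, so its reads did not fall with those of LOXL1. Of the lysyl oxidases outside the 10 genes, LOXL3 was also lower, at 7.76, 7.42 and 8.19 TPM untreated and 4.59, 4.59 and 3.91 TPM with r-CRMP2 (log2 fold change of CPM -0.51 ± 0.10 SE, adjusted p = 0.000984, edgeR). DOK1 and HTRA2 overlap LOXL3 on the opposite strand and had fewer counts in every r-CRMP2 library as well (DOK1 250 to 262 untreated and 72 to 105 with r-CRMP2). LOXL4 had 3 to 14 counts a library and its difference was not called (adjusted p = 0.388, edgeR).

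The opposite directions changed the make-up of the family. The LOX to LOXL1 ratio of TPM was 1.90, 1.44 and 1.23 untreated and 7.18, 7.21 and 7.53 with r-CRMP2, a 4.87-fold difference of geometric means. The LOXL1 to LOXL2 ratio was 0.0878, 0.0997 and 0.108 untreated and 0.0261, 0.0265 and 0.0253 with r-CRMP2. These were the widest separations among the 10 ratios (exact permutation p = 0.10 each, the smallest possible). LOXL2 stayed the dominant transcript, at 80.2% ± 0.461 and 82.3% ± 0.125 of the summed TPM of the 3 genes, LOX went from 11.9% ± 1.31 to 15.6% ± 0.126, and LOXL1 from 7.91% ± 0.863 to 2.13% ± 0.05 (SD, n = 3 each).

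**Figure D3:**
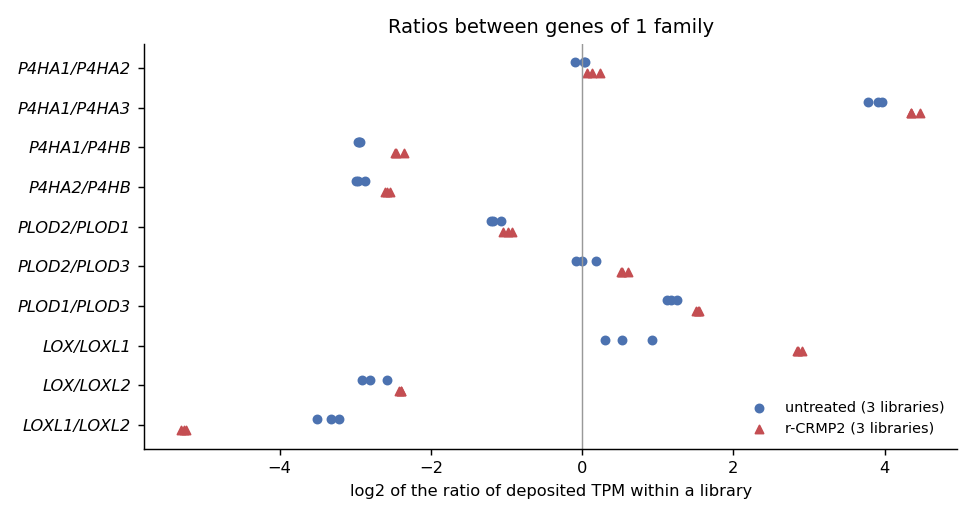
Log2 of the ratio of deposited TPM of 2 genes in the same library, for 10 pairs, with circles for 3 untreated and triangles for 3 r-CRMP2 libraries. The groups are apart in all 10 pairs, most widely for LOX/LOXL1 (mean 0.58 to 2.87) and LOXL1/LOXL2 (mean -3.35 to -5.27), and by the least for P4HA1/P4HA2 and PLOD2/PLOD1.

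Set in order of TPM, the untreated cells had P4HB highest (mean 1005), then PLOD1 (370.4), LOXL2 (276), PLOD2 (167), PLOD3 (163), P4HA2 (131), P4HA1 (130.2), LOX (40.9), LOXL1 (27.1) and P4HA3 (8.82). PLOD2 and PLOD3 overlapped between libraries, as did P4HA2 and P4HA1, and the other neighbours did not. With r-CRMP2 LOXL2 (625) stood second, above PLOD1 (505), and P4HA1 (239.8) and P4HA2 (217) stood above PLOD3 (175). There PLOD2 (255) and P4HA1 overlapped, and the other neighbours did not. The summed TPM was 270.3 ± 13.4 untreated and 468 ± 3.16 with r-CRMP2 for the P4HA genes, 701 ± 34.4 and 935 ± 40.2 for the PLOD genes, and 344 ± 19.7 and 759.8 ± 38.6 for LOX, LOXL1 and LOXL2 (SD, n = 3 each).

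**Figure D4:**
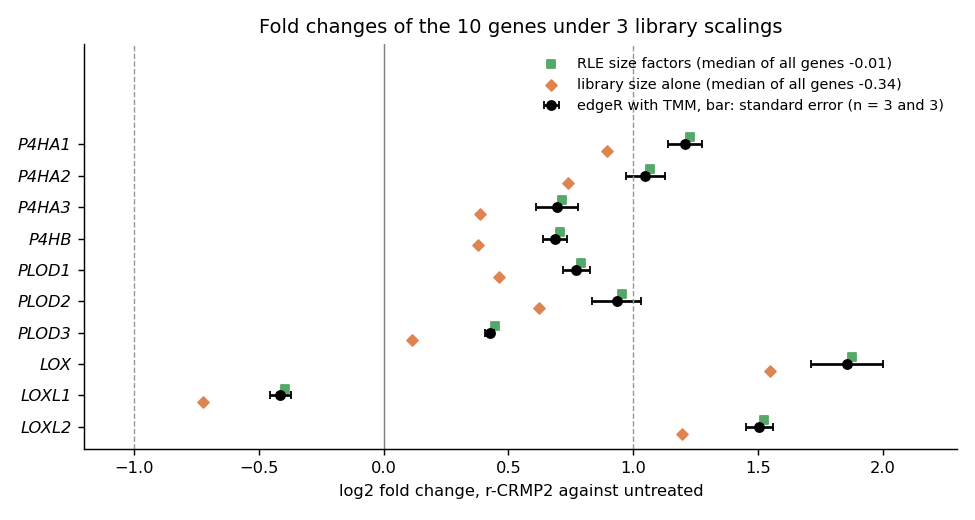
Log2 fold change of CPM, r-CRMP2 against untreated, for each gene with TMM scaling (black, bars show the standard error, n = 3 and 3), RLE size factors (squares) and library size alone (diamonds), with dashed lines at -1 and 1. Library size alone moves all 10 genes to lower values by a like amount, which takes P4HA1 (0.90) and P4HA2 (0.74) below 1 and leaves PLOD3 at 0.11.

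The other enzymes and chaperones that handle procollagen were mostly higher too, by less than 1 on the log2 scale in each case. Of 26 genes in this list, 22 passed the filter, 13 were higher (59.1%, against 28.2% of all genes tested) and 3 were lower, with a median log2 fold change of 0.44. This list and those below were chosen with earlier results of these data known, so such shares are not a test. Scaling by library size alone gave 8 rises and 6 falls, beside 2171 rises and 8449 falls among all 16222 genes tested. The largest changes were in SEC24D, a coat protein of the vesicles that export procollagen (0.80), FKBP10, a chaperone and prolyl isomerase that works with lysyl hydroxylase (390.01 to 672 CPM, 0.79), PCOLCE2, an enhancer of the C-proteinase (0.70), and BMP1, the C-proteinase itself (0.68). Their adjusted p-values ran from 5.44e-09 for FKBP10 to 1.08e-06 for PCOLCE2 (edgeR's quasi-likelihood test). The 3 lower genes were LOXL3, TLL1, a relative of BMP1 (-0.59, adjusted p = 4.72e-06, edgeR), and MIA3, which loads procollagen into vesicles (-0.25, adjusted p = 0.0137, edgeR). TLL1 and MIA3 were named after their values were seen. The call on MIA3 was lost without r-CRMP2 replicate 2 (-0.14, adjusted p = 0.0783, edgeR).

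Genes for collagen chains and elastic fibre proteins were next, in a list that also holds FN1, which is neither. Of 30 tested genes of this list, FN1 included, 15 were higher, 1 was lower and 14 were not called. The median log2 fold change was 0.25, where 28.2% of all genes tested were higher and 30.1% lower. The counts of higher and lower genes became 10 and 7 when libraries were scaled by size alone. All 16222 genes tested then gave 2171 rises and 8449 falls. COL5A3, a chain of type V collagen, went from 2.70, 2.0 and 2.67 CPM untreated to 14.7, 15.9 and 14.9 CPM with r-CRMP2 (log2 fold change 2.62 ± 0.14 SE, adjusted p = 1.85e-11, edgeR). FN1, which encodes fibronectin, went from 525 ± 30.5 to 1647 ± 65.0 CPM (SD, n = 3 each, log2 fold change 1.65, adjusted p = 4.19e-13, edgeR). COL6A1 of type VI collagen (1.03) and COL5A1 of type V collagen (1639 to 3238 CPM, 0.98) followed. The 1 lower gene was COL1A1, the main chain of type I collagen, at 419 ± 34.6 CPM untreated and 316 ± 12.6 CPM with r-CRMP2 (log2 fold change -0.41 ± 0.08 SE, adjusted p = 3.81e-05, edgeR), which was named after its values were seen. ELN, which encodes elastin, had 1 to 13 counts a library and was not tested.

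P4HB is a disulfide isomerase, and most genes in a list of such isomerases and linked enzymes were higher. Not all of them are relatives of P4HB. Of 17 tested genes of disulfide isomerases, oxidases and the peroxiredoxin PRDX4, 11 were higher and 3 lower (median log2 fold change 0.45). That is 64.7% and 17.6% against 28.2% and 30.1% of all genes tested. Scaling by library size alone gave 7 rises and 5 falls, where all 16222 genes tested gave 2171 rises and 8449 falls. ERO1A, the oxidase that recharges protein disulfide isomerase, went from 104 ± 9.26 to 295 ± 10.7 CPM (SD, n = 3 each, log2 fold change 1.5, adjusted p = 2.37e-12, edgeR), and QSOX1, a secreted sulfhydryl oxidase, rose by 1.14 (adjusted p = 3.91e-11, edgeR). PRDX4, a peroxiredoxin of the endoplasmic reticulum (0.80), and PDIA5, a disulfide isomerase (0.74), rose less. The 3 lower genes were the membrane-bound thioredoxin-like TMX3 (-0.63), TMX2 (-0.62) and TMX1 (-0.21), named after their values were seen. TMX2 shares its locus with the readthrough gene TMX2-CTNND1, so its counts are uncertain, and the call on TMX1 (adjusted p = 0.014, edgeR) was lost without r-CRMP2 replicate 3 (adjusted p = 0.0585, edgeR).

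The other oxygenases with the same cofactors were divided. Of 16 tested genes of 2-oxoglutarate hydroxylases and ascorbate transport, 5 were higher and 6 lower, which is 31.2% and 37.5% against 28.2% and 30.1% of all genes. Scaling by library size alone gave 4 rises and 10 falls, where all 16222 genes tested gave 2171 rises and 8449 falls. The list's median log2 fold change was -0.13. JMJD6, a JmjC-domain oxygenase (1.44), and EGLN3, a HIF prolyl hydroxylase that is itself a known HIF target (112 to 264 CPM, 1.24), rose by more than 1, and EGLN1, the main HIF prolyl hydroxylase (0.65), ASPH, an aspartyl hydroxylase (0.49), and OGFOD3 (0.27) rose by less. EGLN1, ASPH and OGFOD3 were named after their values were seen, and OGFOD3 turned to -0.038 with library size alone. RIOX1, a ribosomal oxygenase, went from 12.1, 12.9 and 13.2 CPM untreated to 5.57, 4.55 and 3.09 CPM with r-CRMP2 (log2 fold change -1.54 ± 0.25 SE, adjusted p = 1.18e-07, edgeR). HIF1AN, the asparaginyl hydroxylase of HIF, fell by 0.79 on the log2 scale (adjusted p = 2.32e-08, edgeR). EGLN2, another HIF prolyl hydroxylase, was lower as well (-0.56, adjusted p = 5.72e-06, edgeR), although its counts are uncertain because it shares its locus with the readthrough gene RAB4B-EGLN2. The other lower genes were OGFOD1 (-0.51), RIOX2 (-0.44) and OGFOD2 (-0.25), and the call on OGFOD2 was lost without untreated replicate 2 (-0.22), r-CRMP2 replicate 2 (-0.21) or r-CRMP2 replicate 3 (-0.21). These and EGLN2 were named after their values were seen.

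**Figure D5:**
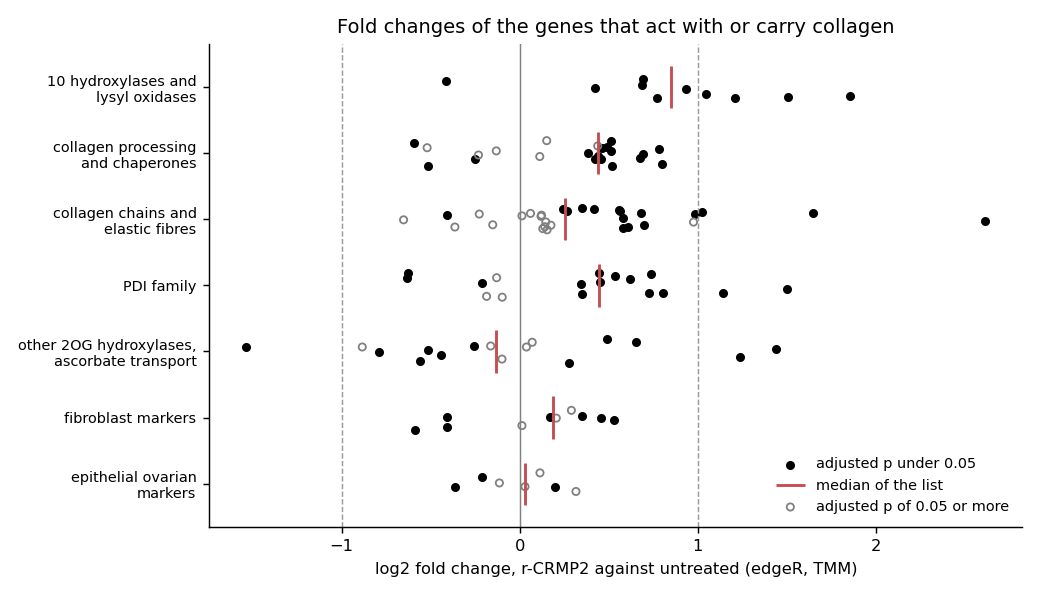
Log2 fold change of CPM, r-CRMP2 against untreated, of every tested gene of the 10 and of 6 lists (filled points for adjusted p under 0.05, open points otherwise, red lines for medians, vertical scatter for legibility only, dashed lines at -1 and 1). The 10 genes have a median of 0.85, the 4 lists of partner genes and related enzymes medians from -0.13 to 0.45, and the fibroblast and epithelial markers medians of 0.19 and 0.03.

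Because fibroblasts are rich in these enzymes, markers of fibroblasts were set beside the results. In bulk RNA a change in the number of cells of a type and a change in RNA per cell cannot be told apart. The summed level of the 10 tested fibroblast markers was 613 to 686 CPM untreated and 538 to 562 CPM with r-CRMP2. Most of it was COL1A1, and the other 9 markers summed to 218 to 228 CPM untreated and 219.5 to 252 CPM with r-CRMP2, which overlap. FAP, a defining marker of activated fibroblasts, had 4 to 9 counts in a library. Of the tested markers 4 were higher (COL1A2, PDGFRA, THY1 and LUM, log2 fold changes from 0.17 to 0.53), 3 were lower (COL1A1, PDGFRB and POSTN, from -0.59 to -0.41) and 3 were not called (edgeR). These shares lie near the 28.2% higher and 30.1% lower of all genes tested. The labels name A2780 cells and no fibroblasts, so these markers were read in cultures of the cancer line. Whether any fibroblasts were present was not tested. COL1A2 and THY1 were named after their values were seen. With library size alone none of the 4 was called (adjusted p from 0.0705 to 0.69, edgeR), and there THY1 turned to -0.14. With untreated replicate 3 or r-CRMP2 replicate 2 left out, 2 markers were called higher in place of 4. LUM, the largest of the 4 rises, averaged only 2.16 CPM untreated and 3.12 CPM with r-CRMP2 (adjusted p = 0.0444, edgeR). Its call was lost in the DESeq2 fit (adjusted p = 0.058, DESeq2) and without untreated replicate 1, untreated replicate 3 or r-CRMP2 replicate 2.

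The epithelial ovarian markers summed to 3192 to 3268 CPM untreated and 3204 to 3470 CPM with r-CRMP2, which overlap. Most of this sum was the keratins KRT8, KRT18 and KRT7 (means of 1266, 1251 and 665 CPM untreated). PAX8, EPCAM and KRT19 averaged 4.06, 4.44 and 1.40 CPM untreated and were not called, so the sum says little about them. Of 7 tested, KRT18 was higher (log2 fold change 0.20, adjusted p = 0.011, edgeR) and KRT7 (-0.21) and MUC16 (-0.36) were lower. That is 14.3% higher and 28.6% lower, against 28.2% and 30.1% of all genes tested. The calls did not hold throughout: KRT18 turned to -0.11 with library size alone and was not called without replicate 3 of either group, KRT7 was not called without untreated replicate 2 or 3, and MUC16 was not called without untreated replicate 3 or r-CRMP2 replicate 2.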

How the data were processed

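Polyadenylated RNA of 6 A2780 samples was sequenced. The authors deposited, per library, counts of reads on 44591 genes without normalization and TPM values, which follow from the counts and the gene lengths in the files. The submitters' processing notes name FastQC, HISAT2, DESeq2 and the build hg19. The counting tool, the annotation and whether strand was used are not given in the sources used here. In the files, 27 gene names had been turned into dates, and these were kept as listed.

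In R 4.3.3, low-count genes were removed by edgeR's own filter, TMM factors were computed, and all 6 libraries were fitted without a covariate by the quasi-likelihood test of edgeR 4.0.16 (with limma 3.58.1). P-values were adjusted over all 16222 genes tested, with thresholds of 0.05 and, as in the study, 1 on the log2 scale. CPM values are TMM-scaled, and each standard error reflects how log2 CPM (prior count 2) varied among the libraries of a group. Ratios between genes used the deposited TPM of each library and an exact permutation test. TPM sums to the same total in every library, so it carries no TMM scaling and its fold differences are smaller rises than those of TMM-scaled CPM. Replicate pairs of a group differed by more than the sampling noise, so each library was counted as 1 sample. The scripts were tested on simulated data.

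The 10 genes and the lists were chosen with earlier results of these data known. Lists covered collagen processing, collagen chains and elastic fibres with FN1, disulfide isomerases with oxidases and PRDX4, other 2-oxoglutarate hydroxylases, and fibroblast and epithelial markers. Named from each list were at most 4 genes with the largest log2 fold change among those called with a mean of at least 1 CPM, with LOXL3, LOXL4, DPYSL2 and HIF1A, and others where said. Alternatives tried were a DESeq2 1.42.0 fit, scaling by RLE or by library size alone, dropping the low-count filter or asking for 10 counts in every library, the replicate number as a block, and leaving out each library. For the ratios, counts in place of TPM and 1 added to each TPM were also tried. Promoter windows are from RefSeq on GRCh38.p14 and were not joined to the hg19 positions of the files. In transcripts of GENCODE, no 2 of the 10 genes shared a stretch of 50 bases. Some shared longer stretches with other genes, counting either strand. P4HA2 shared 551 bases with P4HA2-AS1, P4HB 363 with AC145207.3 and PLOD3 327 with ZNHIT1. LOXL2 shared 182 bases with AC090197.1 and P4HA3 168 with PPME1. These stretches come from GENCODE transcripts, not from the deposited spans, and their effect on the counts was not tested.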

Additional observations from a re-analysis of the deposited data

How the results depend on the processing

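For the 10 genes, 119 of 120 alternative values of the log2 fold change kept their direction and their side of an adjusted p of 0.05, and the exception was PLOD3 with library size alone. The log2 threshold of 1 was crossed by P4HA1 (0.90) and P4HA2 (0.74) with library size alone and by PLOD2 (1.03) without untreated replicate 1. With library size alone 2 genes in place of 4 were higher past both thresholds, and the other counts changed too: 8 higher in place of 13 and 6 lower in place of 3 for collagen processing, 10 higher in place of 15 and 7 lower in place of 1 for collagen chains, 7 higher in place of 11 and 5 lower in place of 3 for disulfide isomerases, 10 lower in place of 6 for the other hydroxylases, 0 higher in place of 4 for fibroblast markers, and 0 higher in place of 1 with 4 lower in place of 2 for epithelial markers. Relative to TMM scaling, that setting shifts all genes down, to a median of -0.34. The TMM factors were 1.10 to 1.12 for the untreated and 0.88 to 0.92 for the r-CRMP2 libraries. Which of the scalings is closer to the RNA content of the cells was not tested. Over all genes library size alone gave 2171 rises and 8449 falls, against 4574 and 4875 with TMM. KRT18 (-0.11), OGFOD3 (-0.038) and THY1 (-0.14) turned direction there. Requiring 10 counts in every sample gave 3 lower collagen chain genes in place of 1, and no low-count filter gave 2 higher fibroblast markers in place of 4, and the cause was not tested. With each library left out in turn, from 2 to 5 fibroblast markers were higher, from 0 to 1 epithelial markers higher and from 0 to 2 lower, and from 4 to 5 of the 10 genes were higher past both thresholds. All 90 alternative values of the ratios kept their direction, with exact permutation p of 0.25 at the least for the 3 pairs of the replicate block and 0.10 with a library left out, so these p-values say nothing about stability. The replicate numbers did not pair the libraries: same-numbered libraries correlated at -0.0209, 0.0038 and -0.0252 in their deviations over 16222 genes. With the replicate block, 9 of the 10 genes were higher and 1 lower, with P4HA1 at 1.21, LOX at 1.87 and LOXL1 at -0.41, and of the genes named only THY1 lost its call. LOXL4, WT1, CDH1, FAP and ELN had at most 14 counts a library, which limits the precision of their values, and only LOXL4 of these passed the low-count filter.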
